A study of Mus musculus with 8 samples.

Results

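The cytoplasmic ribosomal protein genes are the family whose products, together with ribosomal RNA, build the small and the large subunit of the ribosome. They were taken by gene name: every symbol of Rpl or Rps followed by a number and at most an a, x, l or l1, plus Rplp0, Rplp1, Rplp2 and Rpsa. The rule found 82 genes of 26642 in the count table, 31 with small subunit names and 51 with large subunit names. A low-count filter left 80 of the 82 for testing.

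The study measured RNA by sequencing in CT26, a mouse colon carcinoma cell line, in 2 genotypes of 4 libraries each. One group was unedited CT26 (labelled WT, replicates 1 to 4) and the other was CT26 in which both Tead1 and Tead4, which encode TEAD transcription factors of the Hippo pathway, were knocked out (labelled KO, replicates 1 to 4). Both groups were grown in RPMI medium with serum, with no other treatment named. The labels do not say how the edit was made, whether the knockout is 1 clone or a pool, or whether replicates were separate cultures, and p-values therefore speak of the variation among these 8 libraries, which could be technical.

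A cytoplasmic ribosome holds a single copy of most of these proteins and more of the stalk proteins, and a cell makes them in balance, since unassembled copies are degraded. Their mRNAs are short and abundant, and many begin with a C followed by an unbroken run of pyrimidines, the 5′ terminal oligopyrimidine (TOP) tract through which mTOR and LARP1 control their translation. A few genes have a related copy (a paralog), and the proteins of some paralogs, though not of all, can take the place of the parent protein in the ribosome.

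The start of the transcript was read from RefSeq promoter entries on GRCm38.p6 as 10 bases before and 20 bases from the annotated first base, 5′ to 3′ on the gene's strand. The sequences below were chosen because they are from the genes described most: increases with and without a TOP tract at the printed start, a stalk gene, Rps6, and the 2 genes that fell. Capitals mark the first base and the run of C and T that follows it, where that run reaches 4 bases after a C.
Rps27 (chr3:90213629-90213658, minus strand, rose, TOP): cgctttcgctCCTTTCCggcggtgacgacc
Rps27l (chr9:66946076-66946105, plus strand, rose, no TOP at this start): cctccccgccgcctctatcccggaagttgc
Rps21 (chr2:180257369-180257398, plus strand, rose, TOP): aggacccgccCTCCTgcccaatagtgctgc
Rpl38 (chr11:114668570-114668599, plus strand, rose, TOP): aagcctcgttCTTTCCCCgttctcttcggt
Rplp2 (chr7:141447641-141447670, plus strand, stalk, TOP): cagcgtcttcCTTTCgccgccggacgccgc
Rps6 (chr4:86857348-86857377, minus strand, TOP): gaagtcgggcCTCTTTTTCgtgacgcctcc
Rpl7l1 (chr17:46782637-46782666, minus strand, fell, no TOP at this start): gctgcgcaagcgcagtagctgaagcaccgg
Rps2 (chr17:24720053-24720082, plus strand, fell, no TOP at this start): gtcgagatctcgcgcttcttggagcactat
A tract of this form (a C at the annotated first base and at least 4 bases after it that are each C or T, on the transcript strand) stood at 13 of 74 annotated starts of the family (17.6%), against 2.51% of all 32851 starts in the table. Entries matched 62 of the 82 genes, and 13 of those 62 had such a start. Only annotated first bases were read, which can lie off the start used in these cells. The count therefore does not show that the other genes lack a tract. The printed start of Rps2 lies well inside its gene (chr17:24718116-24721929). The sequence there does not show that Rps2 lacks a tract. Of the 13, all tested, 6 rose and none fell (median log2 fold change 0.73), and of the 47 tested genes without one at an annotated start, 19 rose and 2 fell (median 0.67). With a trend of counts against transcript length and GC content removed, as described further on, the medians were 0.35 and 0.09. The difference between genes with and without the tract was not tested.

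Libraries held 29679405 to 32774905 counts. Tead1 fell from 206 ± 80.8 to 67.5 ± 12.4 CPM (counts per 1e6 after TMM scaling, mean ± SD, n = 4) and Tead4 from 47.8 ± 12.2 to 29.3 ± 6.08 CPM. They were thus 3.05-fold and 1.63-fold lower, with adjusted p = 0.00217 and 0.0261, and RNA of both remained in every knockout library. Of the colon epithelium markers Epcam was at 0 in all 8 libraries and 4 of 10 could be tested, of which 2 rose (summed 56.8 to 106.5 CPM in WT and 110.1 to 145 CPM in KO). Krt18 rose from 38.5 to 76.3 CPM (adjusted p = 0.00107) and Lgals4 from 0.225 to 6.02 CPM (adjusted p = 0.000840), and Krt20 was at 34.6 and 47.4 CPM (adjusted p = 0.289). Fibroblast markers were present in both genotypes (summed 1409 to 2127 CPM in WT, 1745 to 2341 CPM in KO; 4 of 9 rose), with Col1a2 leading. Leukocyte markers summed to 1.55 to 3.75 CPM in WT and 9.93 to 16.4 CPM in KO with Cd3e and Adgre1 at 0, and endothelial markers to at most 0.438 CPM in WT and 6.45 CPM in KO with Kdr at 0. In bulk RNA, a change in the number of cells of a type and a change in RNA per cell cannot be told apart.

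As a family the ribosomal protein genes took more of the RNA in the knockout. They received 2.66%, 4.01%, 4.74% and 3.01% of all counts in WT replicates 1 to 4 and 6.09%, 5.31%, 5.86% and 5.37% in KO replicates 1 to 4. Every knockout library lay above every WT library, and the means were 3.61 ± 0.949% and 5.66 ± 0.378% (SD, n = 4), a ratio of 1.57. The WT libraries were the more scattered: replicates 1 and 4 were low and replicates 2 and 3 were closer to the knockout. For 68 of the 80 tested genes both replicates 1 and 4 were below both replicates 2 and 3, an order that 35.4% of all tested rows showed. The same WT replicates 1 and 4 had low summed CPM of the mitochondrially encoded mRNAs (10895 and 9434, against 38966 and 30360 in replicates 2 and 3), while in the knockout replicate 3 stood apart at 1123 and the others lay between 41685 and 47620. The part of RNA quality or cell state in the share was not tested.

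**Figure D1:**
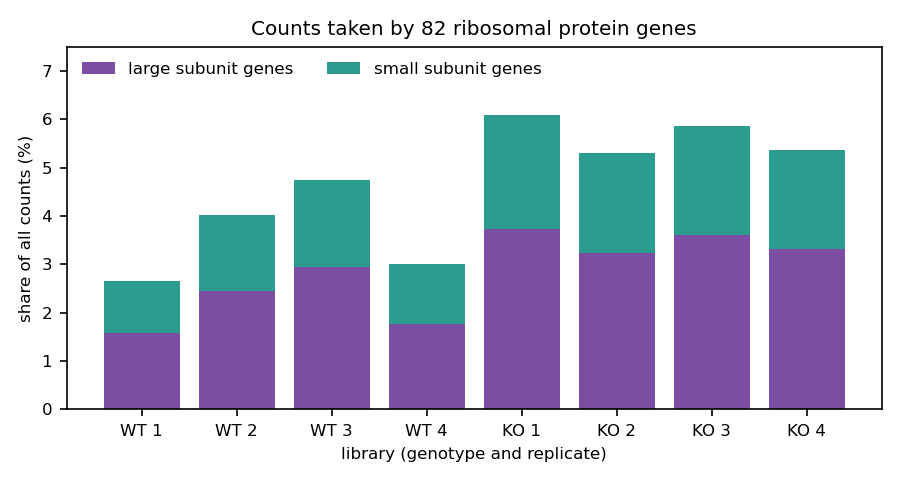
Share of all counts (%, vertical axis) assigned to the 82 ribosomal protein genes in each of the 8 libraries (horizontal axis), with large subunit genes as the lower and small subunit genes as the upper part of each bar. The 4 knockout bars stand between 5.31% and 6.09%, above the highest WT bar at 4.74%, and WT replicates 1 and 4 are the lowest.

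Gene by gene, 33 of the 80 tested genes rose, 2 fell and 45 did not pass (edgeR's quasi-likelihood test over all 13265 tested rows, Benjamini-Hochberg adjusted p under 0.05). Over all rows tested, 41.6% were called, 20.9% higher and 20.6% lower. The median log2 fold change was 0.64 over the family, against 0.02 over all rows. In 41 genes all 4 knockout libraries were above all 4 WT libraries, and in 0 all were below, against 21.1% and 19.6% of all rows. Increases of at least 2-fold numbered 21, beside 13.8% of all rows, and no gene fell by that much (8.56% of all rows did).

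The spread was wide, from a log2 fold change of -0.90 for Rps2 to 2.86 for Rps28. Higher calls made up 94.3% of the family's calls. That share was 69.0% (20 higher, 9 lower) where libraries were scaled to the family's own summed counts, a scaling under which 10.7% of all rows were called higher and 40.3% lower. It was 100% with upper-quartile scaling (47 higher, 0 lower; 27.0% and 14.8% of all rows), which raised the median of all rows from 0.02 to 0.20.

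The spread of the WT libraries and transcript length both bear on these counts. Without WT replicates 1 and 4, 17 genes were higher and 1 lower (12.5% and 9.02% of all rows), with a family median of 0.30. Leaving out WT replicate 3 alone gave 51 higher and 2 lower, and leaving out WT replicate 1 or 4 alone gave 22 higher and 1 lower each. With each library's trend of counts against transcript length and GC content in the other genes removed, 21 were higher and 12 lower (17.7% and 30.8% of all rows), with a median of 0.09 against -0.15 over all rows.

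**Figure D2:**
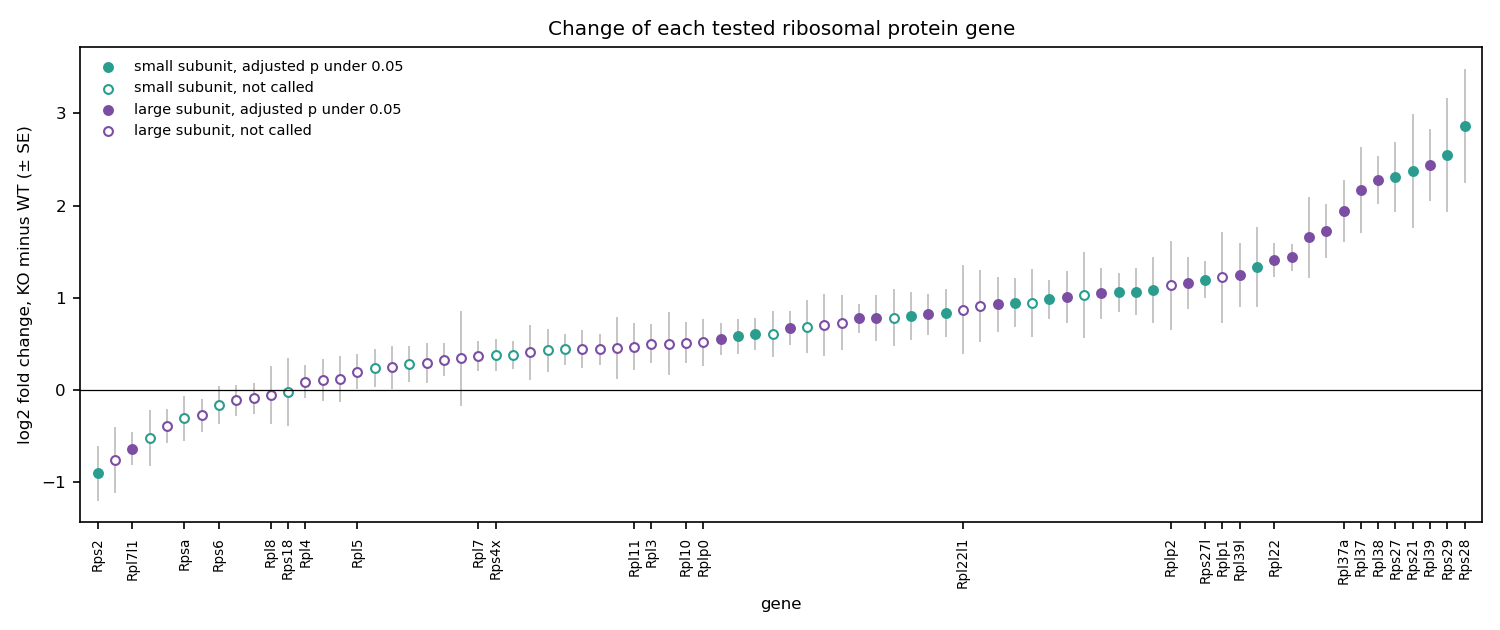
Log2 fold change of KO over WT (vertical axis, bars are ± SE from the edgeR fit on 4 and 4 libraries) for the 80 tested ribosomal protein genes in order of size (horizontal axis; symbols are written for the genes described by library). Filled points passed an adjusted p of 0.05 and open points did not. Both subunits are spread along the whole range, from Rps2 at -0.90 to Rps28 at 2.86.

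Both subunits shared in the increase. Of the 31 small subunit genes 15 rose and 1 fell (median log2 fold change 0.79), and of the 49 tested large subunit genes 18 rose and 1 fell (median 0.51). Small subunit genes took 1.43 ± 0.318% of all counts in WT and 2.19 ± 0.143% in KO, and large subunit genes 2.18 ± 0.632% and 3.47 ± 0.236% (SD, n = 4). The balance between the subunits moved little: the small subunit's part of the family's counts was 40.9%, 39.2%, 37.9% and 41.6% in WT replicates 1 to 4 and 38.7%, 39.1%, 38.6% and 38.5% in KO. The knockout values lay inside the WT range. Small subunit transcripts were also the shorter ones, with a median of 640 nt against 751 nt. After the length and GC trend was removed, 11 small subunit genes were higher and 5 lower, and 10 large subunit genes were higher and 7 lower. The difference between subunits was not tested.

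The largest increases were in genes for some of the smallest ribosomal proteins, and 4 of the 5 largest, all but Rpl39, belong to the small subunit. Rps28 (chr17:33819027-33824562, minus strand, GRCm38), a protein beside the mRNA exit channel, stood at 5.45, 20.1, 58.6 and 9.80 CPM in WT replicates 1 to 4 and at 178, 169, 184 and 153 CPM in KO replicates 1 to 4. The lowest knockout value was well above the highest WT value, that of replicate 3, and the mean rose 7.27-fold (log2 fold change 2.86 ± 0.62, adjusted p = 0.00643). Rps29, a zinc-binding protein near the head of the small subunit, read 9.64, 18.3, 72.5 and 9.51 CPM in WT and 187, 156, 171 and 130.4 CPM in KO. It rose 5.86-fold (log2 fold change 2.55 ± 0.62, adjusted p = 0.0100), again with WT replicate 3 nearest to the knockout.

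Rps21 was measured at 20.3, 74.3, 195 and 27.1 CPM in WT and 429, 395, 433 and 387 CPM in KO. Its WT libraries ranged over 9.58-fold, yet even the highest, replicate 3, was below each knockout library, and the rise was 5.19-fold (adjusted p = 0.0136). Rps27 (chr3:90212522-90213651, minus strand, GRCm38), the small subunit zinc-finger protein whose TOP tract is printed above, read 26.1, 54.8, 82.8 and 22.8 CPM in WT and 219, 209, 261 and 234 CPM in KO, 4.95-fold up (log2 fold change 2.31 ± 0.38, adjusted p = 0.00217). The knockout libraries agreed to within 1.25-fold while WT replicates 1 and 4 were the lowest of WT.

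On the large subunit, Rpl39 (chrX:37082520-37085402, minus strand, GRCm38) lines the tunnel through which the new protein leaves. It read 36.1, 64.5, 131 and 37.3 CPM in WT and 338, 349.7, 404 and 369 CPM in KO, a 5.44-fold rise (log2 fold change 2.44 ± 0.39, adjusted p = 0.00191) with no overlap. Rpl38, which in mice is known for a role in translating Hox mRNAs, had the tightest WT group of the 8: 17.6, 29.4, 39.2 and 19.8 CPM, against 156, 107, 135 and 115 CPM in KO. Its rise was 4.85-fold (log2 fold change 2.28 ± 0.27, adjusted p = 0.000581).

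Rpl37 stood at 41.5, 104, 206 and 44.4 CPM in WT and 469.5, 390.4, 464 and 453 CPM in KO, and Rpl37a, another zinc-binding protein of the large subunit, at 48.0, 90.9, 137 and 44.4 CPM in WT and 337, 293, 305 and 291 CPM in KO. Neither gene's groups overlapped, and the rises were 4.49-fold and 3.83-fold (adjusted p = 0.00625 and 0.00261). All 8 of these genes were still called higher without WT replicates 1 and 4, with the length and GC trend removed, and when scaled to the family's own counts. In those 3 fits in turn Rps28 had log2 fold changes of 2.10, 1.94 and 2.56, and Rpl38 of 1.89, 1.23 and 1.82.

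**Figure D3:**
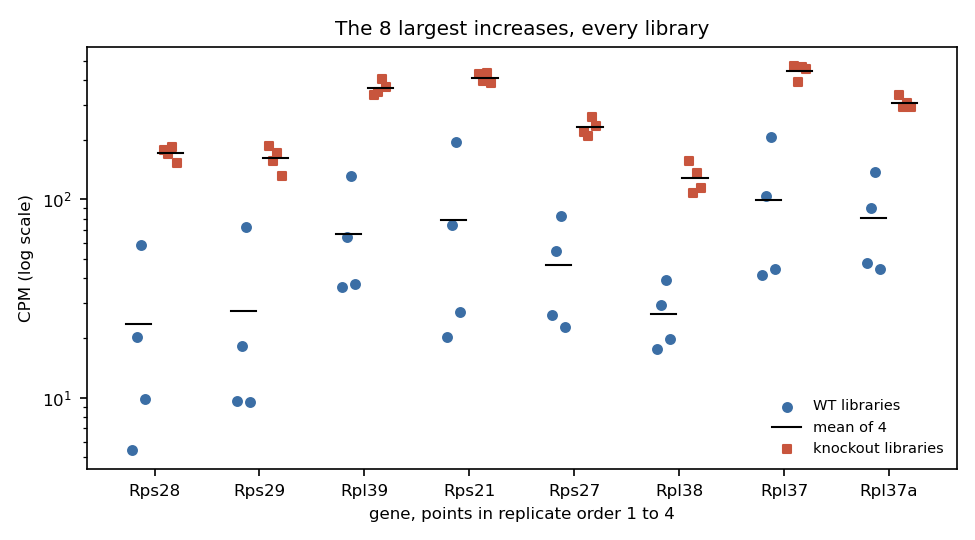
CPM on a log axis (vertical) in every library for the 8 genes with the largest increases (horizontal), circles for WT and squares for KO in replicate order, with a line at the mean of 4. No square lies as low as a circle of the same gene, and in each gene WT replicates 2 and 3 are nearer to the knockout than replicates 1 and 4.

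Another 25 genes rose by less, 3 of them paralogs or parents given below. The 22 others had log2 fold changes from 0.55 (Rpl28) to 1.72 (Rpl36a), with Rpl36 at 1.65, Rpl23 at 1.44 and Rps19 at 1.33 next to Rpl36a. Of all 33, 14 were called higher in each of the alternative fits just named taken 1 at a time: the 8 above and Rpl22, Rpl23, Rpl36a, Rpl9, Rps15a and Rps27l. With the trend removed and WT replicates 1 and 4 left out together, 8 genes were higher and 6 lower (9.64% and 12.6% of all rows). Those 8 were Rpl23, Rpl36a, Rpl37, Rpl37a, Rpl38, Rpl39, Rps27 and Rps28. The lists of genes higher or lower in the alternative fits were named after their values were seen.

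Transcript length went with the size of the change. The family's transcripts had a median annotated length of 680.5 nt, against 2782.5 nt for other tested genes, and 62 of the 80 were under 1000 nt against 7.60% of others. Family members under 500 nt had a median log2 fold change of 1.21 (18 genes), those of 500 to under 700 nt 0.82 (23 genes) and those of 700 to under 1000 nt 0.38 (21 genes). The longer members did not continue the fall evenly: the medians were 0.48 from 1000 to under 1500 nt (12 genes) and 0.20 from 1500 to under 3000 nt (5 genes), and 1 gene of 3000 nt or more was at 1.08. Other genes in the first 3 classes had lower values: 0.86 (101 genes), 0.37 (238 genes) and 0.29 (549 genes), then 0.08 (1271 genes), -0.04 (4258 genes) and -0.09 at 3000 nt or more (5267 genes). Across the 80 genes, log2 length and log2 fold change correlated at r = -0.47 (rho = -0.49), and across 11684 other genes at r = -0.12 (rho = -0.12); genes share the same 8 libraries and are not independent.

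The length pattern was present between libraries of 1 genotype as well. Among other genes under 500 nt, the median log2 deviation from each gene's mean was -0.64, -0.22, -0.09 and -0.60 in WT replicates 1 to 4 and 0.68, 0.44, 0.31 and 0.21 in KO replicates 1 to 4. WT replicates 1 and 4 were again lowest and KO replicate 1 highest, the library that was also the highest of the knockouts for 71 of the 80 family genes. Removing the trend brought the family's r down in size to -0.22 (rho = -0.23). The part of library preparation in this pattern was not tested. Annotated lengths of Rps20 (3706 nt), Rps3 (1908 nt) and Rps24 (1613 nt) may overstate the transcript that is made.

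**Figure D4:**
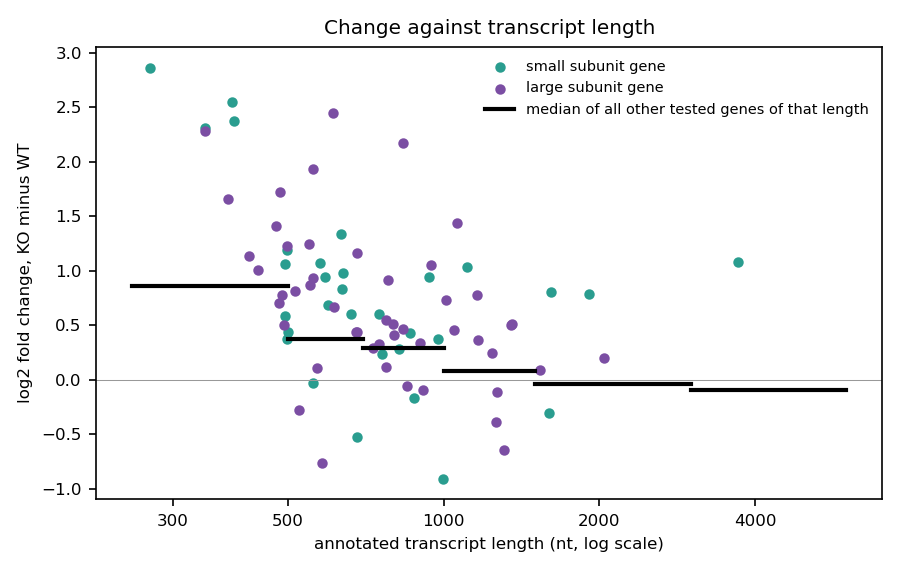
Log2 fold change of KO over WT (vertical axis) against annotated transcript length in nt (horizontal, log axis) for the 80 tested family genes, with black lines at the median of all other tested genes in 6 length classes (the outer lines are drawn only to the edge of the plot). Short transcripts sit higher in both, with medians of 1.21 and 0.86 under 500 nt, and the family's 8 largest increases lie far above the black lines.

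Only 2 members fell. Rps2 (chr17:24718116-24721929, plus strand, GRCm38), a protein at the mRNA entry of the small subunit, read 147, 147, 143 and 188 CPM in WT and 149, 66.4, 57.8 and 61.1 CPM in KO. The other knockout libraries were below all of WT, but KO replicate 1 lay inside the WT range, so the groups overlapped (log2 fold change -0.90 ± 0.30, adjusted p = 0.0341). The call held only without WT replicate 3 or KO replicate 1 among the 8 fits that left out 1 library, where adjusted p ran from 0.000351 (without KO replicate 1) to 0.0964 (without KO replicate 2). Rpl7l1 (chr17:46773907-46782672, minus strand, GRCm38), a paralog of Rpl7, read 165, 208, 205 and 151 CPM in WT and 152, 114, 98.6 and 104 CPM in KO, with KO replicate 1 just above WT replicate 4. It fell by 0.64 on the log2 scale (SE 0.18, adjusted p = 0.0189), a call lost without KO replicate 2, 3 or 4 (adjusted p from 0.0561 to 0.0618). When the length and GC trend was removed, these genes were joined by 10 more lower calls, among them Rpl26, Rpl29, Rpl6, Rpl7a, Rpl8, Rps10, Rps15, Rps26 and Rpsa. Rps10 and Rps15 changed sign there, from 0.38 and 0.44 with every knockout library above every WT library to -0.53 and -0.49. Other genes had mostly negative medians in that fit as well. These were 0.05 under 500 nt, -0.25 at 500 to under 700 nt, -0.15 at 700 to under 1000 nt and -0.24 at 1000 to under 1500 nt. The 2 longer classes were at -0.20 and -0.11.

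Genes of the ribosomal stalk, the flexible arm that recruits elongation factors, did not pass in the edgeR test, although 2 of them had means over 2-fold higher in the knockout. Rplp1 stood at 209.5, 644, 1159.5 and 236 CPM in WT and 1575, 1306, 1189.8 and 1178 CPM in KO, Rplp2 at 119, 305, 656 and 143 CPM in WT and 869, 615, 611 and 591 CPM in KO. For Rplp1 the groups did not overlap, by a narrow margin between WT replicate 3 and KO replicate 4, while for Rplp2 WT replicate 3 was above 3 of the knockout libraries. Rplp0, the base of the stalk, read 1052, 1698, 2256 and 1267 CPM in WT and 2715, 2145, 2053 and 2051 CPM in KO. Their log2 fold changes were 1.22 ± 0.49, 1.13 ± 0.48 and 0.51 ± 0.26 (adjusted p = 0.0696, 0.0816 and 0.135), and that of Rpl12, which binds the stalk's base, was 0.25 ± 0.23. Without WT replicate 3 alone, Rplp0, Rplp1 and Rplp2 all passed, with log2 fold changes of 0.72, 1.83 and 1.80. On all 8 libraries Rplp1 and Rplp2 were also called higher by DESeq2 (adjusted p = 0.0189 and 0.0284) and limma-voom (adjusted p = 0.0301 and 0.0342). With the length and GC trend removed, Rplp0, Rplp1 and Rplp2 were at 0.22, 0.53 and 0.35 (edgeR adjusted p = 0.386, 0.206 and 0.380). Without WT replicates 1 and 4 they were at 0.17, 0.53 and 0.47 (edgeR adjusted p = 0.598, 0.194 and 0.321). None passed in either fit.

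Rpl5 and Rpl11, which with 5S rRNA bind and inhibit Mdm2 when ribosome assembly is disturbed, changed less. Rpl5 read 631, 992, 963 and 756 CPM in WT and 1032, 958, 938 and 909 CPM in KO, and Rpl11 242, 478, 488 and 294 CPM in WT and 668, 473, 477 and 458 CPM in KO. The groups overlapped in both, with log2 fold changes of 0.20 ± 0.19 and 0.47 ± 0.25 (adjusted p = 0.409 and 0.161). In the list of genes of this surveillance route, 6 of 12 rose and 1 fell, beside 20.9% and 20.6% of all rows. Of the 6, 3 were the family members Rpl22, Rps27 and Rps27l, and the others were Mdm2 (1.02), Cdkn1a, a cell cycle inhibitor (0.97), and Zmat3 (0.80), all p53 targets, while Trp53 itself fell by 0.94 (values are log2 fold changes). With the length and GC trend removed 5 were higher and 1 lower, and Cdkn1a was no longer called (0.42, adjusted p = 0.287).

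Rps6, the S6 kinase substrate, had the opposite order in WT: 1494, 1128, 947 and 1667 CPM, highest in replicates 1 and 4, against 1265, 1107, 1151 and 1144 CPM in KO. Rpsa, on the solvent side of the small subunit and known too as the laminin receptor, was the most abundant member per length in WT (1657 CPM per kb of transcript) and read 2206, 2919.8, 2688 and 2782 CPM in WT and 3169.8, 1903, 1771 and 1713 CPM in KO. KO replicates 2 to 4 were below all of WT while KO replicate 1 was above them all. Neither passed, at log2 fold changes of -0.17 ± 0.21 (adjusted p = 0.544) and -0.31 ± 0.25 (adjusted p = 0.333), but Rpsa was called lower without KO replicate 1 (-0.58, adjusted p = 0.0231).

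The smallest changes were in Rps18, Rpl8 and Rpl4. Rps18 read 35.1, 84.9, 141 and 46.1 CPM in WT and 70.9, 79.9, 77.5 and 73.7 CPM in KO, Rpl8 803, 1612, 2038 and 923 CPM in WT and 1689, 1234, 1098 and 1152 CPM in KO, and Rpl4, a long-armed protein of the exit tunnel, 2056, 2288, 2314 and 2190.3 CPM in WT and 2669, 2150.2, 2286 and 2314 CPM in KO. For Rps18 and Rpl8 the knockout values lay inside a wide WT range, whereas Rpl4 ranged over only 1.13-fold in WT and 1.24-fold in KO. Their log2 fold changes were -0.02 ± 0.37, -0.06 ± 0.31 and 0.09 ± 0.17 (adjusted p = 0.963, 0.901 and 0.702), and the sign of each turned under other scalings. Together with those named above, 45 genes did not pass; the 30 of these not given by library had log2 fold changes from -0.76 (Rpl29) to 1.03 (Rps16).

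By place in the ribosome, 5 of 9 genes of the peptide exit tunnel rose (Rpl22, Rpl23a, Rpl31, Rpl35 and Rpl39) and none fell. Of 9 genes along the mRNA path and at the decoding site, Rps28 and Rps23 rose, Rps2 fell and 6 did not pass. Of 17 genes mutated in Diamond-Blackfan anaemia, a failure of red cell production from lack of a ribosomal protein, 8 rose (among them Rps19, Rps24, Rps27, Rps28, Rps29, Rpl27 and Rpl35) and none fell. After removal of the length and GC trend these lists held 3 higher and 1 lower, 2 higher and 4 lower, and 6 higher and 3 lower. In the whole family 41.25% of tested genes rose and 2.5% fell, and 26.25% and 15% were higher and lower with the trend removed. The background of all rows is given above.

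In 3 of the 4 testable pairs the paralog lost ground to its parent in the knockout. Rps27l (chr9:66946086-66949516, plus strand, GRCm38), a p53-inducible near copy of Rps27, read 49.5, 53.1, 71.1 and 48.8 CPM in WT and 176, 108, 116 and 109 CPM in KO, with no overlap and KO replicate 1 the highest. It rose 2.29-fold (log2 fold change 1.19 ± 0.20, adjusted p = 0.00240), less than its parent, and by 0.54 on the log2 scale with the length and GC trend removed. As a percentage of the parent's counts, Rps27l was at 189.5%, 97.0%, 85.9% and 214% in WT replicates 1 to 4 and 80.2%, 51.7%, 44.5% and 46.7% in KO, so every knockout library lay below every WT library. The mean log2 ratio changed by -1.32 (exact two-sided permutation test over 70 assignments, n = 4 and 4, p = 0.0286, the smallest this design can give; adjusted over 4 pairs, 0.0381). Without WT replicates 1 and 4, the libraries with the 2 highest ratios, the change was -0.75, in a design too small to pass after adjustment.

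Rpl39l, a near copy of Rpl39 known for its high expression in male germ cells, read 39.5, 67.3, 115 and 38.7 CPM in WT and 210.0, 124, 145 and 140.5 CPM in KO and rose 2.38-fold (log2 fold change 1.25 ± 0.35, adjusted p = 0.0178). Its counts were 109%, 104%, 88.1% and 104% of those of Rpl39 in WT and 62.2%, 35.5%, 35.9% and 38.1% in KO. The paralog thus matched its parent in WT and stood below it in each knockout library, a change of -1.28 in mean log2 ratio (exact permutation p = 0.0286, n = 4 and 4, adjusted 0.0381). The gene itself was not called with the trend removed (adjusted p = 0.0562) or without WT replicates 1 and 4 (adjusted p = 0.108).

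Rpl7, the parent of Rpl7l1, read 926, 1174, 1142 and 1114 CPM in WT and 1446, 1403, 1389 and 1375 CPM in KO, without overlap but not past the threshold (log2 fold change 0.37 ± 0.16, adjusted p = 0.0901), which it passed with DESeq2 (adjusted p = 0.00537). With the length and GC trend removed, Rpl7 was at 0.14 and did not pass (edgeR adjusted p = 0.438). Rpl7l1 was at 17.8%, 17.7%, 17.9% and 13.5% of Rpl7 in WT and 10.5%, 8.10%, 7.10% and 7.54% in KO, a fall in every knockout library and a change of -1.02 in mean log2 ratio (exact permutation p = 0.0286, n = 4 and 4, adjusted 0.0381).

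The last testable pair did not follow. Rpl22, a large subunit protein whose loss is known to raise Rpl22l1, read 66.4, 90.5, 118 and 75.7 CPM in WT and 217, 219, 251 and 243 CPM in KO and rose 2.65-fold (log2 fold change 1.41 ± 0.19, adjusted p = 0.000923). Rpl22l1 read 17.3, 32.1, 100.2 and 21.0 CPM in WT, where replicate 3 was far above the others, and 83.1, 77.3, 74.4 and 77.1 CPM in KO, and did not pass (log2 fold change 0.87 ± 0.48, adjusted p = 0.172), though it did with limma-voom (1.23, adjusted p = 0.0435). It was at 26.1%, 35.5%, 84.8% and 27.8% of Rpl22 in WT and 38.3%, 35.2%, 29.6% and 31.8% in KO, a change of -0.20 in mean log2 ratio (exact permutation p = 0.886, n = 4 and 4). Without WT replicate 3, Rpl22l1 was called higher (log2 fold change 1.71, adjusted p = 0.00191) and the ratio changed by 0.18. With the length and GC trend removed, Rpl22l1 was at 0.37 and did not pass (edgeR adjusted p = 0.520).

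**Figure D5:**
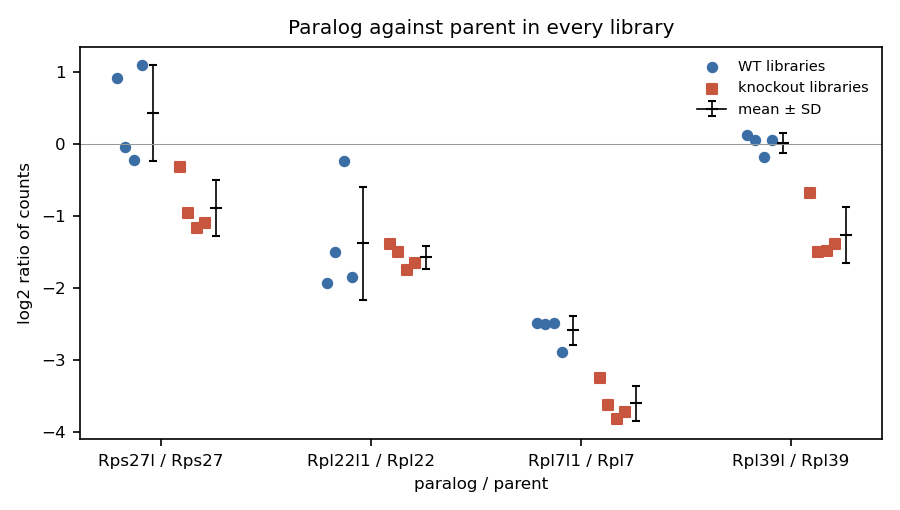
Log2 ratio of a paralog's counts to its parent's (vertical axis) in every library for the 4 testable pairs (horizontal), circles for WT and squares for KO, with mean ± SD of 4 beside them. For Rps27l, Rpl7l1 and Rpl39l all squares are below all circles, with changes of -1.32, -1.02 and -1.28, and for Rpl22l1 the squares lie among the circles.

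For 3 more pairs the paralog gave no ratio. Rpl10l, a retrogene of Rpl10 used in spermatogenesis, had no count in any library, which allows up to 0.0915 to 0.101 CPM, unscaled (3 counts, counting error only), and Rpl3l, the striated muscle form of Rpl3, had 7 counts in 3 libraries. Rps4l was not analysed here. Their parents were abundant: Rpl10 read 579, 919.8, 1140.1 and 680.0 CPM in WT and 1312, 1112, 1174 and 1139 CPM in KO, Rpl3 539, 785, 973 and 572 CPM in WT and 1027, 950.5, 1055 and 1026 CPM in KO, and Rps4x 1276, 1621, 1515 and 1486 CPM in WT and 2105, 1971, 1813 and 1763 CPM in KO. Their log2 fold changes were 0.51 ± 0.23, 0.50 ± 0.21 and 0.38 ± 0.17, and none passed (adjusted p = 0.0928, 0.0813 and 0.103), though without WT replicate 3 Rpl10 and Rpl3 did (0.68 and 0.66). All 3 were called higher by DESeq2 (adjusted p = 0.0433, 0.0356 and 0.00797) and with upper-quartile or library-size scaling. With the length and GC trend removed, Rpl10, Rpl3 and Rps4x were at 0.09, 0.24 and 0.06 (edgeR adjusted p = 0.682, 0.286 and 0.758). Without WT replicates 1 and 4 they were at 0.19, 0.19 and 0.27 (edgeR adjusted p = 0.452, 0.407 and 0.275). None passed in either fit.

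Levels per length differed widely within the family, though a ribosome holds most of its proteins in equal number. In CPM per kb of transcript, Rplp1 (2629), Rps4x (1962), Rpl41 (1908), Rpl32 (1725) and Rplp0 (1650) led in the knockout, and Rpl29 (5.73), Rpl21 (8.93), Rpl26 (47.5) and Rpl35a (53.4) were lowest. The 8 genes with the largest increases ranked between 59 and 76 of 80 in WT and between 26 and 67 in the knockout. The annotation holds 298 pseudogenes named after 60 of these genes, 15 of them after Rpl21, and the sources used here do not say how reads that fit a gene and its copies were counted, so levels of single genes are uncertain. Rps27rt, a retrotransposed copy of Rps27, has reads that could be exchanged with it.

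Among ribosomal protein genes whose names fall outside the pattern, Rps27rt rose (log2 fold change 1.94, adjusted p = 0.000851), as did Fau, whose product is a ubiquitin-like protein fused to a small subunit protein (0.87, adjusted p = 0.0352). With the length and GC trend removed Rps27rt was at 1.17 and Fau was no longer called (0.03, adjusted p = 0.900). Rack1, Rps3a1 and Rpl36al did not pass, at log2 fold changes of 0.34, -0.06 and 0.37.

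Lists of other translation genes held more falls than rises, beside 20.9% of all rows higher and 20.6% lower. Of 20 genes listed as elongation factors and further TOP mRNAs, 2 rose and 6 fell (median log2 fold change -0.23), with the smallest p for Eef1e1 (-1.04, listed by its symbol only), Nap1l1 (-0.89), Serbp1 (-1.37) and Eif3f (0.53). The other gene to rise, named after its value was seen, was Tpt1, a classic TOP mRNA (0.72), and Pabpc1, another, fell by 1.08. With the length and GC trend removed, Tpt1 was no longer called (0.38, adjusted p = 0.119). The elongation factor genes Eef1a1, Eef1b2, Eef1d, Eef1g and Eef2 did not pass in the main analysis (0.26, 0.66, -0.35, 0.07 and 0.34). Of 17 regulators of ribosomal protein synthesis, 2 rose and 6 fell: Pdcd4, an inhibitor of the helicase eIF4A, rose (2.57), while Larp1, which binds TOP tracts (-0.996), its relative Larp1b (-0.86) and the S6 kinase gene Rps6kb1 (-0.58) fell. Pabpc1 was highest in WT replicates 1 and 4, at 6588, 3018, 2958 and 6525 CPM in WT and 2026 to 2711 CPM in KO. Serbp1, Nap1l1, Eef1e1, Larp1, Larp1b and Rps6kb1 had that WT order too, and in each every knockout library was below every WT library. Eif5a and Eif4ebp1, which also fell, did not have it. The part of this WT split in the falls was not tested.

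Of 13 chaperones and carriers of single ribosomal proteins, 1 rose and 5 fell, among them Heatr3, which brings Rpl5 to the nucleus (-1.27), Rrp7a (-0.92), Grwd1, a partner of Rpl3 (-1.13), and Ltv1, a factor of small subunit assembly (-0.99). Cell cycle genes of the G2/M phase moved with the genotype: 8 of 12 fell, and their summed level was 3294 to 4737 CPM in WT and 485 to 2320 CPM in KO, highest there in replicate 1. With the length and GC trend removed, where 17.7% of all rows were higher and 30.8% lower, the counts higher and lower were 1 and 10 for the elongation and TOP list, 2 and 8 for the regulators, 1 and 9 for the chaperones and 0 and 12 for the G2/M genes. The part of the G2/M genes in the change of the ribosomal protein genes was not tested.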

How the data were processed

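RNA of 8 CT26 libraries (4 WT, 4 KO) was sequenced after preparation with an mRNA library kit, per the labels. The authors deposited the same whole-number read counts per gene in 2 tables, and the one with gene symbols was used as deposited. HISAT2, StringTie and the mouse build GRCm38 are named per the submitters' processing notes; the counting program, its strand setting and its treatment of reads that fit several places are not stated there. TMM factors set the library scale, and edgeR 4.0.16 under R 4.3.3 tested genotype (quasi-likelihood, no other term), after edgeR's default low-count filter (a count of about 10 in 4 libraries), and p-values were adjusted by Benjamini-Hochberg over all 13265 rows kept. CPM are counts per 1e6 of the TMM-scaled library; SD are over 4 libraries. The fit was tested on simulated data. Paralog ratios used a prior count of 0.5 and an exact permutation test. Transcript length and GC content came from the shortest principal transcript in GENCODE M21 (GRCm38), for 80 of 80 tested members, and the trend was a spline with 5 degrees of freedom fitted on the other genes of each library. Limma 3.58.1 and DESeq2 1.42.0 served as alternatives.

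Named by rule were the paralog pairs, the stalk genes, Rpl5, Rpl11, Rpsa, Rps6, the 8 largest increases and decreases past the threshold, the 3 smallest changes, and up to 4 genes of smallest p in each further list. The members and lists were chosen with earlier results of these data known. No 2 replicates agreed within sampling noise: chi-square per degree of freedom between WT libraries was 34.7 for replicates 1 and 4, 35.0 for replicates 2 and 3, and at least 201 for other pairs. A few single genes are not reported here by name.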

Additional observations from a re-analysis of the deposited data

Results flagged for a closer look

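In groups of 4 libraries, 1 library can stand apart from the other 3; the gap to its nearest neighbour was divided by the group's whole range, and values above Dixon's 95% critical value are given here. Of 68 groups examined, 10 passed, and chance passes about 5% of groups. The groups share the same 8 libraries and are not independent, so the count is no test against that share. KO replicate 1 stood above the other knockout libraries for Rps27l (0.877 of the range), Rplp0 (0.859), Rplp2 (0.915), Rpl11 (0.911), Rpsa (0.870) and Rps2 (0.905), and in the log2 ratio of Rpl39l to Rpl39 (0.874). It was the highest knockout library for 71 of the 80 tested genes. For Rps2 it read 149 CPM against 66.4 CPM in the next library, and for Rpsa 3169.8 CPM against 1903 CPM.

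In WT, replicate 3 stood above the others for Rps29 (0.861), at 72.5 CPM against 18.3 CPM in the next. WT replicate 4 was apart in 2 places. It was the highest for Rps2 (0.903) and the lowest in the log2 ratio of Rpl7l1 to Rpl7 (0.959), at -2.89 against -2.50 in the next.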

How the results depend on the processing

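The family's median fell most with length removed, with scaling to the family and without WT replicates 1 and 4, and its count of rises went down in those settings and up without WT replicate 3, with DESeq2 and with upper-quartile or library-size scaling (47 each); the cause was not tested. Leaving out both those libraries, removing length alone, and combining length and GC removal with that omission or with the replicate block were added after seeing the data. Leaving out 1 library each gave 22 (without WT replicate 1 or 4) to 51 rises (without WT replicate 3), 0 to 3 falls and 3809 to 6829 called rows. Without WT replicates 1 and 4 there were 3085 called rows, 17 rises and 1 fall. The other settings gave these rises, falls and medians: 20, 9 and 0.16 scaled to the family; 21, 12 and 0.092 with length and GC removed; 19, 9 and 0.11 with length removed; 20, 10 and 0.13 with length and GC removed and the replicate block. With length and GC removed and WT replicates 1 and 4 left out there were 2769 called rows, 8 rises, 6 falls and a median of -0.076, large subunit -0.115. The median of all rows, 0.02 in the main analysis, moved as well. It was -0.49 scaled to the family, 0.06 without WT replicates 1 and 4, and -0.16 with length removed. With length and GC removed it was -0.15, also with the replicate block or with WT replicates 1 and 4 left out. Upper-quartile scaling gave 0 falls by edgeR (2 at an unadjusted p under 0.05), as did leaving out KO replicate 2, 3 or 4 (2 each), where DESeq2 and limma-voom on all libraries each gave 2, with 49 and 43 rises.

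Replicate numbers did not pair the libraries: deviations of same-numbered libraries correlated at -0.0186, -0.0166, -0.00276 and -0.0317. With the replicate block the counts stayed at 33 and 2, of which 29 rises and both falls were shared with the fit without it; Rplp1, Rplp2 and Rpl22l1 were among the 4 new rises (adjusted p = 0.0363, 0.0426 and 0.0493).

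The sign of these log2 fold changes of genes described by library turned, none of them called in the main analysis. Scaling to the family moved the median of all rows to -0.49, so small rises turn negative there by construction. In that fit Rpl7 was at -0.14, Rps4x at -0.14, Rpl5 at -0.29, Rpl11 at -0.0036 and Rpl4 at -0.43. With length and GC removed, Rpl11 was at -0.0068 and Rpl4 at -0.069 (also -0.069 with the replicate block), and with length removed Rps4x was at -0.044 and Rpl4 at -0.17. Without WT replicates 1 and 4, Rpl5 was at -0.044 and Rps6 at 0.15, and with length and GC removed as well Rpl22l1 was at -0.30, Rpl3 at -0.043, Rpl10 at -0.16, Rplp0 at -0.089, Rplp1 at -0.063, Rplp2 at -0.19, Rpl5 at -0.22, Rpl11 at -0.29 and Rpl4 at -0.15. With upper-quartile and library-size scaling, Rps6 was at 0.022 and 0.025, Rps18 at 0.131 and 0.131, and Rpl8 at 0.096 and 0.088. With the stricter filter, limma-voom and the replicate block, Rps18 was at 0.054, 0.181 and 0.187 and Rpl8 at 0.017, 0.033 and 0.026, and with annotated genes only Rps18 was at 0.0054. Leaving out 1 library each moved Rps18 between -0.27 and 0.42 and Rpl8 between -0.24 and 0.19.

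For the paralog ratios, leaving out 1 library each gave -1.54 to -1.10 for Rps27l, -1.14 to -0.95 for Rpl7l1, -1.47 to -1.20 for Rpl39l and -0.38 to 0.18 for Rpl22l1. Those designs, of 35 assignments each, gave adjusted p of 0.0571 to 0.0762 for the first 3 pairs in the exact permutation test. None of the 3 passed there, although Rpl7l1 had an unadjusted p of 0.0286 in each. The design without WT replicates 1 and 4 (-0.75, -1.12 and -1.20), of 15 assignments, is too small to pass. A prior count of 2 left the calls as they were. At these depths only Rpl10l and Rpl3l were too low to test.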
